A study of Mus musculus with 18 samples.

Results

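The HoxD cluster is a row of Hox genes on mouse chromosome 2, with the homeobox gene Evx2 beside its 5′ end. The genes described here are the listed Hoxd genes and Evx2, 10 in all, taken by name and followed in cluster order through the 6 groups of limb bud libraries. Of the 10, 9 were listed in at least 1 of the 3 deposited tables, which together list 14686 genes. The tables held 9 of them for the CD1 limb buds and 8 each for the e11.0 and e11.5 hindlimbs. Hoxd1 was listed in no table, Hoxd3 only in the CD1 table, and Hoxd4 stood in each table under its identifier without a symbol. Genes that a table does not list were not analysed here, and every listed gene reached a level of about 1 CPM (the deposited unit, in which reads are scaled to one common total per library) in at least 3 libraries of its table.

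Limb buds are outgrowths of mesenchyme under an ectodermal cover from which the limbs form. The groups, of 3 libraries each, were wild type CD1 forelimb at e10.5, wild type CD1 hindlimb at e11.0, and hindlimb of BALB/c embryos, either Pitx1 wild type or Pitx1 null, taken at e11.0 and again at e11.5. The CD1 stages were chosen to match in limb morphology, so limb type and embryonic age cannot be told apart in that comparison. Pitx1 is a homeodomain transcription factor of the hindlimb bud. What the null allele lacks and whether embryos were pooled is not given in the labels. Libraries at e10.5 and e11.0 were depleted of ribosomal RNA and kept strand, while those at e11.5 were enriched for mRNA. Replicates 1 and 2 of every group shared a sequencing run. Replicate 3 was of another run at each BALB/c stage, at e11.5 from libraries without strand, and in the CD1 groups its run is not named. Nothing says that replicates came from separate litters, so p-values measure the spread between these libraries, which may be technical.

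Hox genes encode homeodomain transcription factors, and in vertebrates their order along the chromosome follows the order in which they are used along the body and limb axes. In the mouse limb the HoxD genes are used in an early phase, when genes from the 3′ side to the middle of the cluster pattern the upper arm and forearm or their hindlimb counterparts, and in a late phase, when Hoxd13 and its neighbours act in the future hand or foot. Regulatory landscapes on either side of the cluster drive these phases, and Evx2 shares the late one with Hoxd13. Hoxd10 to Hoxd13 are also known to respond to Shh, the signal of the posterior limb bud, through loss of Gli3 repressor.

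The genes lie on chromosome 2 of GRCm38 within a stretch that starts with Evx2 (ENSMUSG00000001815, 74652991 to 74659557, minus strand). Hoxd13 (ENSMUSG00000001819) spans 74668310 to 74671599, Hoxd12 (ENSMUSG00000001823) 74675013 to 74677705 and Hoxd11 (ENSMUSG00000042499) 74679557 to 74687016, all on the plus strand. Hoxd10 (ENSMUSG00000050368) spans 74691924 to 74695105, Hoxd9 (ENSMUSG00000043342) 74697727 to 74700208 and Hoxd8 (ENSMUSG00000027102) 74704615 to 74707933. Further towards the 3′ end, Hoxd4 (ENSMUSG00000101174) spans 74711929 to 74729160, Hoxd3 (ENSMUSG00000079277) 74711927 to 74748442 and Hoxd1 (ENSMUSG00000042448) 74762980 to 74765142. Exons of Hoxd3 and Hoxd4 overlap each other and noncoding genes over 62.8% and 52.3% of their bases in GENCODE M21, counted on either strand. Hoxd11 shares 10.8% and Hoxd10 5.73% with the noncoding Gm28309, and the others share none. Values of genes with such overlaps are uncertain, since reads there can be counted for another gene or for none.

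The promoters of Hoxd8, Hoxd9 and Hoxd10 are shown because these genes moved together between CD1 forelimb and hindlimb, and those of Hoxd11 and Evx2 because these are the only ones of the set with a match to a searched motif. Each runs 5′ to 3′ on the gene's strand from 250 bases before to 50 bases after a RefSeq start site (GRCm38.p6), and capitals mark the motif match.
Hoxd8, chr2:74704365-74704664, plus strand: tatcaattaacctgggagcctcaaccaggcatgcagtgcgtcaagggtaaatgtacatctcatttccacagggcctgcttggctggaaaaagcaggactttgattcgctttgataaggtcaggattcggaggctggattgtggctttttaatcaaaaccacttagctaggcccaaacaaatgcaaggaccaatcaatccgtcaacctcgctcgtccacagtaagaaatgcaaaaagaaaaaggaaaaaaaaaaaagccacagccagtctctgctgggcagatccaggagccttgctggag
Hoxd9, chr2:74697513-74697812, plus strand: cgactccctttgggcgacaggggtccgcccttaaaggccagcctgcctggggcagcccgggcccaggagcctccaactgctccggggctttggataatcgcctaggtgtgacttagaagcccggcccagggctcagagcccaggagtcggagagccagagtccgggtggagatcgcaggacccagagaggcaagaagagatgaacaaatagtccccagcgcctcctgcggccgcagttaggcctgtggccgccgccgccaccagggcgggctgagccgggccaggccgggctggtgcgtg
Hoxd10, chr2:74691641-74691940, plus strand: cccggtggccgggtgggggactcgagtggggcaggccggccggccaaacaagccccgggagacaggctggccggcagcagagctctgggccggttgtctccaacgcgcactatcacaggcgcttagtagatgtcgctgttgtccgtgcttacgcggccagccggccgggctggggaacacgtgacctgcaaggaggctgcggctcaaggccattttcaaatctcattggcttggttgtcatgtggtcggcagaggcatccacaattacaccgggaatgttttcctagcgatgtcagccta
Hoxd11, chr2:74679308-74679607, plus strand: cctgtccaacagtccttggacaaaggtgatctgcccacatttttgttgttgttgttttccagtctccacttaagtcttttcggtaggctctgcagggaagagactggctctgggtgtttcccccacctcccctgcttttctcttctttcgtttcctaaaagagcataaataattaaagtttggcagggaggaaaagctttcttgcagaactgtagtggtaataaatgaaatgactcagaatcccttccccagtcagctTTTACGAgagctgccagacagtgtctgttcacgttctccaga
Evx2, chr2:74659508-74659807, minus strand: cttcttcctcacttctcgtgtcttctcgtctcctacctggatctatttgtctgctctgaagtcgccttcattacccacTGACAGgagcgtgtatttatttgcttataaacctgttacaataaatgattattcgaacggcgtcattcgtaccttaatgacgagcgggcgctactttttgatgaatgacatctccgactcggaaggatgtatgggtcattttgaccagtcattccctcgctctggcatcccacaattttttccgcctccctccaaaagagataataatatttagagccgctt

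The motifs were searched on both strands, and none of them overlaps another. TAATCC, the bicoid type bound by Pitx factors, occurred in 7.06% of 32817 RefSeq promoters and in 0 of the 11 promoters of the set. TGACAG, the Meis type, occurred in 19.2% of all promoters and in 1 of the set, that of Evx2, at position -172 from the start site. GACCACCCA, the Gli type, occurred in 0.253% of all promoters and in 0 of the set. TTTACGA, a group 13 Hox type, occurred in 0.597% of all promoters and in 1 of the set, the upstream promoter of Hoxd11, beginning 8 bases after the start site. A match describes letters in this window and is not a shown binding site.

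**Figure D1:**
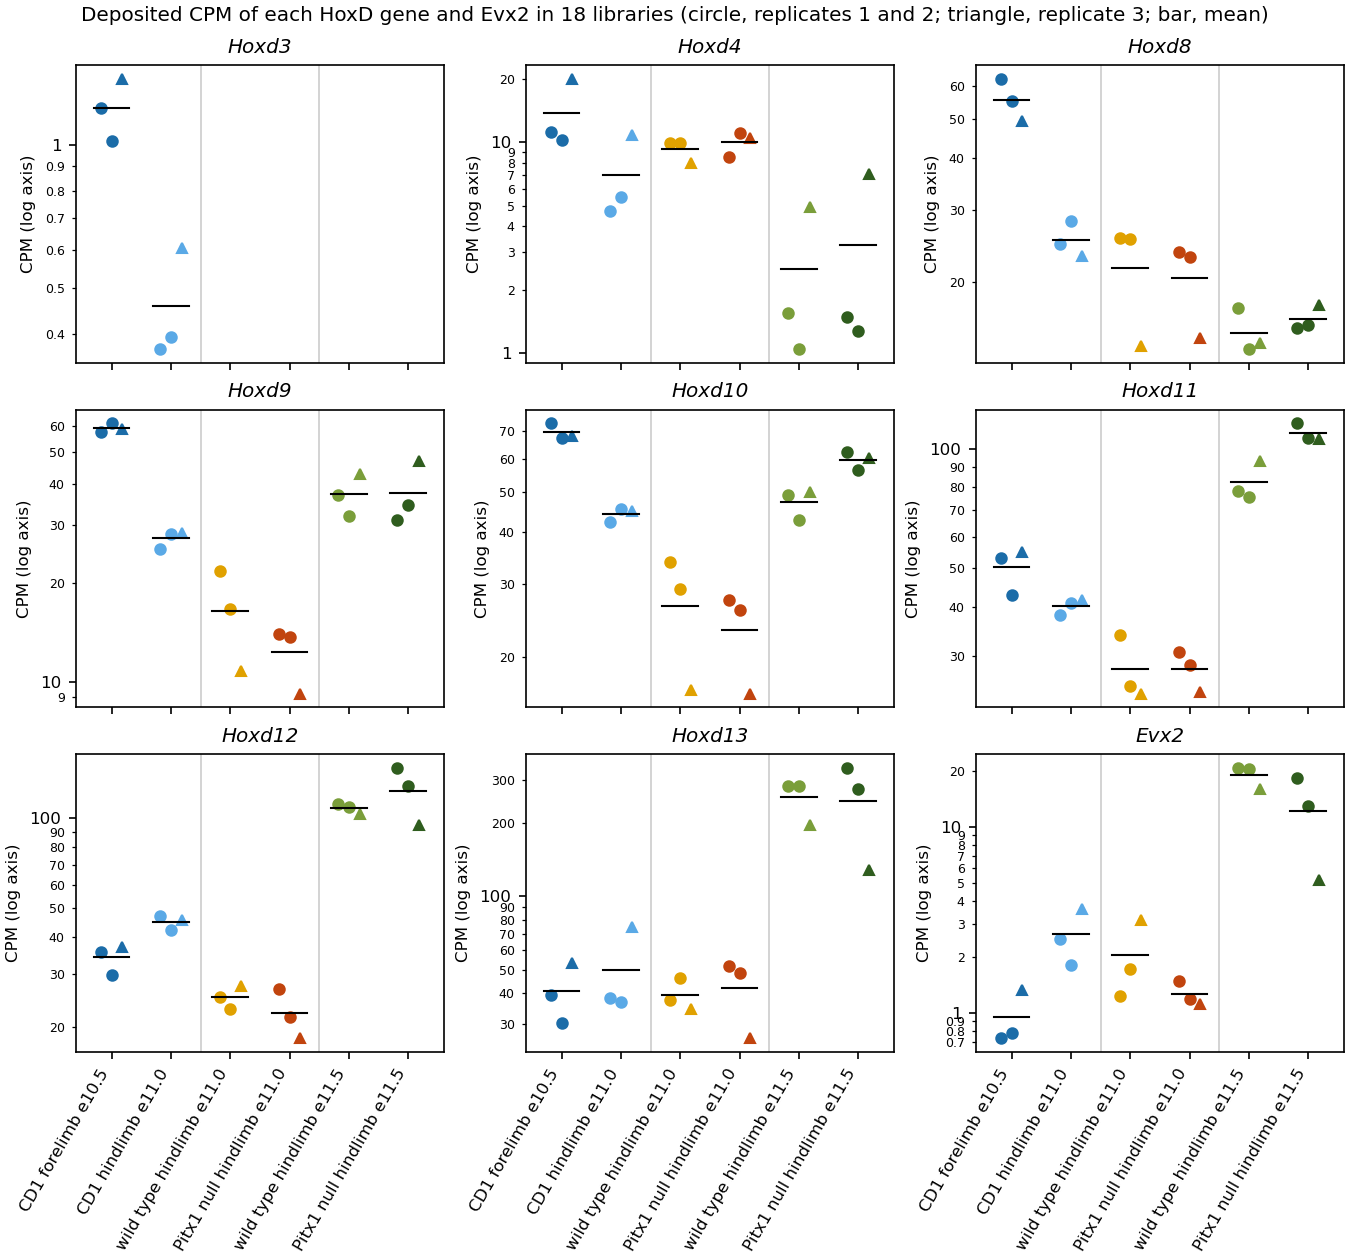
Deposited CPM (log axis) of each listed HoxD gene and Evx2 in 18 libraries of 6 groups, with circles for replicates 1 and 2, triangles for replicate 3 and bars for means and grey lines between the separately normalized tables. Hoxd9 was at 57.5 to 61.3 CPM in forelimb and 25.4 to 28.4 CPM in CD1 hindlimb, and Hoxd13 reached 336 CPM in a null hindlimb library at e11.5.

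The labels were checked on Pitx1. Its level was 0.266 to 0.462 CPM in CD1 forelimb and 183 to 223 CPM in CD1 hindlimb. It was 114 to 136 CPM in wild type hindlimbs at e11.0 against 19.3 to 22.9 CPM without Pitx1, and 319 to 365 against 72.1 to 88.6 CPM at e11.5, so reads were still counted on the gene in the null. Depth on listed genes was 17381522 to 53611914 reads a library. Of 7 markers of tail bud and hindgut or cloaca, tissues near the hindlimb that use posterior Hox genes, 0 were listed in any table. Of 11 markers of neural tube and neurons 3 were listed, and their summed level was 11.9 to 28.2 CPM in all groups. Of 8 limb mesenchyme markers, which include Pitx1 itself, 8, 7 and 7 were listed in the CD1, e11.0 and e11.5 tables.

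The CD1 comparison asked how the hindlimb bud differs from the forelimb bud. Hoxd4, Hoxd8, Hoxd9 and Hoxd10 were lower in hindlimb, Hoxd12, nearer the 5′ end, was higher, and Hoxd11 and Hoxd13 did not pass. Hoxd8 and Hoxd9 were 2.19-fold and 2.17-fold lower in mean CPM, and Hoxd12 was 1.31-fold higher. Hoxd3 was also lower and Evx2 higher, but each averaged under 1 CPM in the group where it was low and was listed through the group where it was high, so these directions were favoured by the listing. By limma on log2(CPM + 1), 7 of 9 listed genes passed an adjusted p of 0.05, 2 higher and 5 lower, and without Hoxd3 and Evx2, left out after their values were seen, 5 of 7 passed, 1 higher and 4 lower. Over all 13540 genes tested 5.87% passed, 2.41% higher and 3.46% lower. Groups did not overlap for 7 of the 9, or 5 of those 7, against 11.2% of all genes. The median log2 fold change of the 7 was -0.639, beside 0.006 over all genes tested. In bulk limb buds, fewer cells using a gene and less RNA per cell cannot be told apart. In the same libraries 2 of 8 limb mesenchyme markers were higher and 3 lower in hindlimb (summed level 895 to 1320 CPM in forelimb and 1080 to 1430 CPM in hindlimb). The 8 include Pitx1, at 0.266 to 0.462 CPM in forelimb and 183 to 223 CPM in hindlimb, which by itself raises the hindlimb sums. They also include Tbx4 and Tbx5, and Tbx5 was listed for CD1 but not for the BALB/c hindlimbs. Limb type itself can thus enter these counts and sums, which are no measure of mesenchyme content. Of 4 listed muscle precursor markers 2 were lower (107 to 142 and 82.8 to 112 CPM), and of 6 listed erythroid markers 2 were higher (3730 to 3800 and 3790 to 5020 CPM). One marker each of somite and trunk mesoderm and of the apical ridge was lower, with overlapping sums, and the part of these markers in the HoxD values was not tested.

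Hoxd8, a middle gene of the cluster, was at 62.5, 55.1 and 49.2 CPM in the forelimb libraries and at 24.8, 28.1 and 23.2 CPM in the hindlimb libraries. Each forelimb library lay above each hindlimb library. The log2 fold change was -1.10 ± 0.07 (SE, n = 3 per group, limma adjusted p = 2.84e-05). Hoxd9, which acts with its paralogues in the upper limb segment of the mouse, was at 57.5, 61.3 and 59.1 CPM in forelimb and at 25.4, 28.2 and 28.4 CPM in hindlimb. The groups were far apart beside their spread, and the difference was -1.09 ± 0.06 (adjusted p = 1.11e-05). Hoxd10, known in the mouse for hindlimb innervation and patterning, was at 73.0, 67.4 and 68.0 CPM in forelimb and at 42.4, 45.5 and 44.8 CPM in hindlimb. These ranges were apart as well, at -0.64 ± 0.06 (adjusted p = 0.000162). Without the run term Hoxd8 and Hoxd10 did not pass (limma adjusted p = 0.0691 for each), while Hoxd9 still did.

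Hoxd4, an anterior gene of the cluster known for its role in the hindbrain and neck vertebrae, was at 11.1, 10.2 and 20 CPM in forelimb and at 4.70, 5.52 and 10.8 CPM in hindlimb. Replicate 3 was the highest library in each group, and the ranges overlapped. With the run as a term the difference was -0.90 ± 0.09 (adjusted p = 0.00029). Without that term Hoxd4 was not called (limma adjusted p = 0.94), so its call rested on the assumed coding of the run. Hoxd3 was near the listing level, at 1.19, 1.02 and 1.38 CPM in forelimb and 0.372, 0.394 and 0.607 CPM in hindlimb (-0.59 ± 0.11, adjusted p = 0.0142). It was listed through its forelimb libraries alone. Its call was lost when forelimb replicate 3 (adjusted p = 0.0782) or hindlimb replicate 1 (0.0657), 2 (0.0556) or 3 (0.0752) was left out.

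Hoxd11, which acts with Hoxa11 in the forearm of the mouse, was at 53.2, 42.8 and 54.9 CPM in forelimb and at 38.1, 40.8 and 41.5 CPM in hindlimb. The ranges did not overlap, but forelimb replicate 2 lay close above the highest hindlimb library, and the gene did not pass (-0.31 ± 0.08, adjusted p = 0.052). Without forelimb replicate 1 or 2 the adjusted p was 0.0452 and 0.00654. It also passed after each of 3 other scalings of the libraries (0.0278 to 0.0347) and by edgeR's quasi-likelihood test on recovered reads (0.0268). With the replicate number as a block it was 0.0704.

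Hoxd12, a posterior gene, was at 35.7, 29.9 and 37.0 CPM in forelimb and at 46.9, 42.2 and 45.7 CPM in hindlimb. Here the hindlimb libraries were the higher ones, without overlap (0.39 ± 0.08, adjusted p = 0.0145). Leaving out forelimb replicate 3 (adjusted p = 0.0555), hindlimb replicate 1 (0.0924) or hindlimb replicate 3 (0.0564) ended this call. Hoxd13, which in mouse and human is needed for normal digits, was at 39.3, 30.2 and 53.4 CPM in forelimb and at 38.3, 36.7 and 75.2 CPM in hindlimb. Both groups had their highest value in replicate 3, the ranges overlapped and the gene did not pass (0.24 ± 0.10, adjusted p = 0.199). Without forelimb replicate 1 it passed (0.38, adjusted p = 0.000786). Evx2, an even-skipped type homeobox gene, was at 0.731, 0.775 and 1.33 CPM in forelimb and at 2.5, 1.81 and 3.61 CPM in hindlimb. It was low in both groups, and each hindlimb library exceeded each forelimb library (0.89 ± 0.12, adjusted p = 0.00214). Its listing rested on the hindlimb libraries, since 2 of the 3 forelimb libraries were under 1 CPM.

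**Figure D2:**
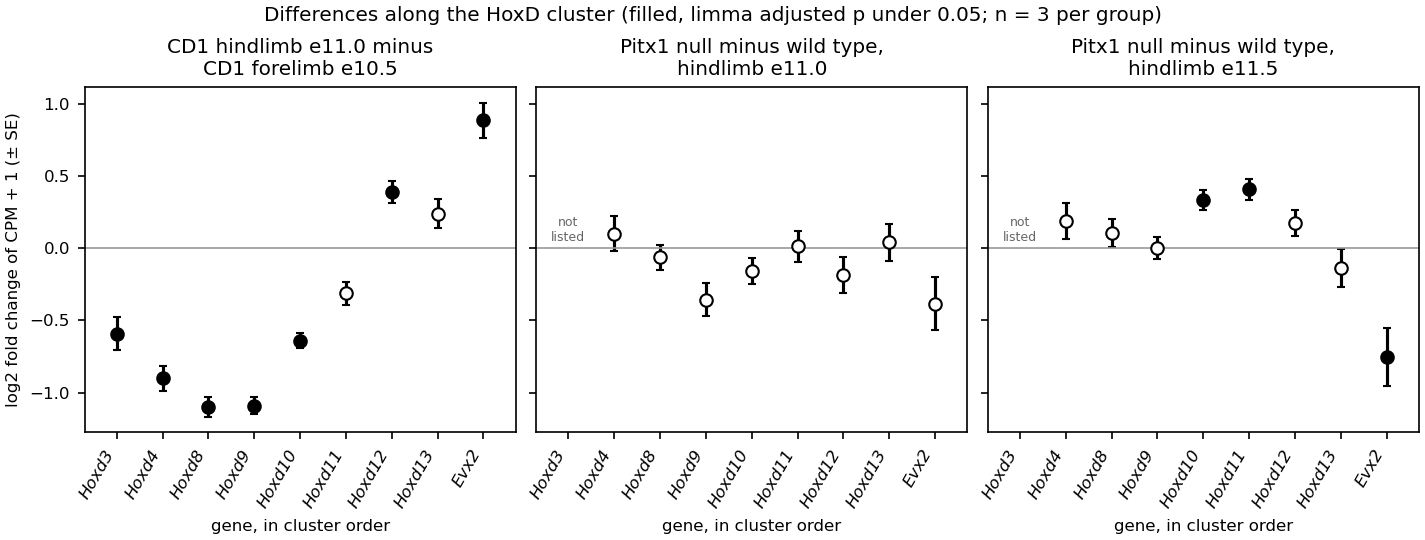
Log2 fold change of CPM + 1 (± SE, limma, n = 3 per group) for each listed gene in cluster order, with Hoxd3 at the left and Evx2 at the right, in 3 comparisons; filled points passed an adjusted p of 0.05. In CD1 the values run from -1.10 at Hoxd8 to 0.39 at Hoxd12, with 0.89 at Evx2. The directions of Evx2 and Hoxd3 in CD1 were favoured by their listing. At e11.0 none passed, and at e11.5 Hoxd10, Hoxd11 and Evx2 did.

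Genes around and beyond the cluster were followed for comparison. Of 19 listed flanking genes, which include the noncoding RNAs inside the cluster, 0 were higher and 2 lower in CD1 hindlimb. The 2 were Hoxd3os1, antisense to Hoxd3 (-0.98 ± 0.13, adjusted p = 0.00167), and Chrna1, a muscle acetylcholine receptor subunit (-0.54 ± 0.13, adjusted p = 0.0373), whose mean fell from 1.82 to 0.923 CPM and which, like Hoxd3, could not have been listed by its hindlimb libraries alone. The median of the 19 was -0.066. Of 9 listed paralogues of groups 8 to 13 from the other Hox clusters 7 rose and 1 fell from forelimb to hindlimb, with a median of 1.37. Hoxc11, at 0.746 CPM on average in forelimb, was listed through hindlimb, and without it 6 of 8 rose, with a median of 0.855. The largest differences were those of Hoxc11 (4.46), Hoxc10 (4.26), Hoxc9 (2.43) and Hoxa13 (1.93), while Hoxa9 fell (-0.30, adjusted p = 0.0385, and 0.0604 with the replicate block). Hoxd10 thus fell where its paralogue Hoxc10 rose, from 1.67 ± 2.3 CPM (SD) in forelimb to 41.9 ± 16.7 CPM in hindlimb. With that forelimb spread Hoxc10 too could not have been listed by its forelimb libraries alone. The direction of Hoxc10 was thus favoured by the listing, and it is still counted among the 6 of 8. Of 24 limb bud genes that act on or with HoxD genes 6 were higher and 7 lower, with a median of -0.027. Shh was higher (0.66) with Sall1 (0.82), a zinc finger factor of the distal limb. Runx2, of bone formation (-1.76), and Epha3, an ephrin receptor (-1.47), were lower.

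At e11.0 the question was whether HoxD genes change in hindlimbs without Pitx1. None of the 8 listed genes passed, and their groups overlapped in each case. Over all 14027 genes 13.1% passed, 4.73% higher and 8.41% lower in null hindlimbs, and 18.5% did not overlap. The lowest unadjusted limma p of the 8 was that of Hoxd9 (0.00914). By edgeR and DESeq2 on recovered reads 0 were called, but the shares of all genes called by these methods are not given here. The median log2 fold change of the 8 was -0.111, beside -0.073 over all genes.

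Hoxd9 was at 21.7, 16.6 and 10.8 CPM in wild type and at 14.0, 13.8 and 9.22 CPM in null buds. Within each replicate number the null library was the lower one, but replicate 3 was low in both groups. The difference was -0.36 ± 0.11 with an adjusted p of 0.0585, and with the replicate number as a block the adjusted p was 0.0285. Without wild type replicate 2 it was 0.00839. Of 18 alternatives only these 2 called Hoxd9, and both also raised the count of calls over all genes. Hoxd8 was at 25.7, 25.5 and 14.0 CPM in wild type and 23.6, 23.0 and 14.7 CPM in null, and Hoxd10 at 33.8, 29.2 and 16.7 and at 27.5, 26.0 and 16.4 CPM. In both genes replicate 3 stood lower than the others by more than the genotypes differed, with differences of -0.06 ± 0.08 and -0.16 ± 0.09.

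Hoxd11 was at 33.9, 25.3 and 24.2 CPM in wild type and 30.7, 28.5 and 24.4 CPM in null buds, a difference of 0.01 ± 0.11. Hoxd4 differed by 0.10 ± 0.12, with levels of 7.98 to 9.95 and 8.55 to 11.1 CPM. For Hoxd12, Hoxd13 and Evx2 the null library was the lower one in replicate 3. Hoxd12 was at 25.2, 23.0 and 27.5 CPM in wild type and 26.9, 21.6 and 18.3 CPM in null. Hoxd13 was at 37.5, 46.4 and 34.7 CPM and at 51.8, 48.5 and 26.2 CPM. Evx2 was at 1.23, 1.73 and 3.17 CPM and at 1.49, 1.18 and 1.11 CPM. For Hoxd12, Hoxd13 and Evx2 the replicate 3 pair gave differences of -0.56, -0.39 and -0.98, and replicates 1 and 2 gave 0.001, 0.26 and -0.08. Fitted together these came to -0.18 ± 0.13, 0.04 ± 0.13 and -0.38 ± 0.18, none of which passed (adjusted p = 0.309, 0.834 and 0.162). Replicate 3 is 1 library against 1, so its values have no replicate check.

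Among the paralogues, 1 of 11 listed was higher and 2 were lower in null hindlimbs at e11.0, with a median of -0.118. These were Hoxc8 (0.33), Hoxa13 (-0.90 ± 0.16, adjusted p = 0.0103) and Hoxc10 (-0.43, adjusted p = 0.0494, and 0.0659 to 0.0978 after 3 other scalings). Of 19 flanking genes 1 was higher, Mtx2 (0.47), which encodes a mitochondrial outer membrane protein and borders the cluster on its 3′ side, and 1 was lower, Chn1 (-0.31, also lost after those scalings, adjusted p = 0.0643 to 0.105), with a median of 0.043. Of 24 limb bud genes that act on or with HoxD 2 were higher and 7 lower, with a median of -0.223, though the balance moved to 4 and 6 with trimmed-mean, 4 and 5 with median-ratio and 3 and 7 with upper-quartile scaling, and to 3 and 9 with the replicate block. Runx2, 1 of the 7, was under 1 CPM on average in null hindlimbs. Among those that passed were Epha3 (1.0), Hic1 (0.95), Sox9 (-0.92) and Zbtb16 (-0.89). In the same libraries 4 of 7 listed limb mesenchyme markers were lower and 0 higher (summed level 983 to 1240 CPM in wild type and 657 to 898 CPM in null). The 7 include Pitx1, at 114 to 136 CPM in wild type and 19.3 to 22.9 CPM in null, so the genotype itself lowers these sums. Whether the sums differ without Pitx1 was not tested. Furthermore 5 of 5 endothelial markers were lower (summed level 145 to 201 CPM in wild type and 76.0 to 143 CPM in null) and 4 of 6 surface ectoderm markers higher (190 to 499 and 266 to 614 CPM). Of 4 listed muscle precursor markers 3 were lower (83.5 to 94.7 and 64.6 to 72.1 CPM), and 1 of 6 apical ridge markers (133 to 288 and 161 to 316 CPM) and 1 of 4 listed somite and trunk mesoderm markers (28.4 to 37.5 and 32.9 to 42.4 CPM) was higher. Their part in the HoxD values was not tested.

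At e11.5, of the 8 listed genes Hoxd10 and Hoxd11 were higher in null hindlimbs, by 1.27-fold and 1.33-fold in mean CPM, and Evx2 was lower, by 1.57-fold. The other 5 did not pass. Over all 13478 genes 10.8% passed, 2.83% higher and 7.96% lower, against 3 of 8 here, 2 higher and 1 lower. The groups of 2 genes did not overlap, against 16.5% of all genes. The median of the 8 was 0.14, beside -0.022 over all genes. Whether the effect of Pitx1 loss differs between e11.0 and e11.5 was not tested, since the tables were normalized separately and the library types differ.

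Hoxd10 was at 49.0, 42.7 and 49.9 CPM in wild type and at 62.4, 56.5 and 60.5 CPM in null hindlimbs. Each null library lay above each wild type library, and the difference was 0.34 ± 0.07 (limma adjusted p = 0.0174). Without wild type replicate 2 (adjusted p = 0.0559), null replicate 2 (0.0627) or the run term (0.352) it did not pass. Hoxd11 was at 78.3, 75.9 and 93.4 CPM in wild type and at 116, 107 and 106 CPM in null. Here too the groups were apart (0.41 ± 0.07, adjusted p = 0.0107). The call was lost without null replicate 2 (adjusted p = 0.0638) and without the run term (0.285). In replicates 1 and 2 the difference of Hoxd11 was 0.52 and in replicate 3 it was 0.18.

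Evx2 was at 20.7, 20.5 and 15.9 CPM in wild type and at 18.2, 13 and 5.15 CPM in null hindlimbs. The null library of replicate 3 was the lowest of the 6 by far, and the ranges overlapped. The difference was -0.75 ± 0.20 (adjusted p = 0.045), and it was not called with the replicate block (0.0551), by edgeR's quasi-likelihood test (0.0522) or by DESeq2 (0.133). It was -0.40 with replicates 1 and 2 alone (adjusted p = 0.158) and -1.46 in the replicate 3 pair. Leaving out null replicate 2 or 3 gave adjusted p = 0.162 and 0.165, and leaving out wild type replicate 1 or 3 gave 0.0639 and 0.173.

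Hoxd12 was at 111, 109 and 104 CPM in wild type and at 148, 129 and 95.2 CPM in null. The null library was higher in replicates 1 and 2 and lower in replicate 3 (0.17 ± 0.09, adjusted p = 0.231). With replicates 1 and 2 alone the difference was 0.32 (adjusted p = 0.0433), and the adjusted p was 0.0455 without wild type replicate 3 and 0.046 without null replicate 3. Hoxd13 was at 284, 284 and 195 CPM in wild type and at 336, 274 and 128 CPM in null. It was the most abundant gene of the set at this stage and had its lowest values in replicate 3, where the pair differed by -0.60 against 0.10 in replicates 1 and 2. In all libraries it did not pass (-0.14 ± 0.13, adjusted p = 0.513).

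Towards the 3′ end no gene passed. Hoxd9 was at 37.1, 32.0 and 42.9 CPM in wild type and 31.2, 34.7 and 47.1 CPM in null (0.0009 ± 0.08). Hoxd8 was at 17.3, 13.8 and 14.2 CPM and at 15.4, 15.8 and 17.6 CPM (0.11 ± 0.10). Hoxd4 was at 1.55, 1.04 and 4.91 CPM and at 1.49, 1.27 and 7.05 CPM. Replicate 3 stood well above the others in both groups, as it did in the CD1 groups, while the genotypes differed by 0.19 ± 0.13.

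**Figure D3:**
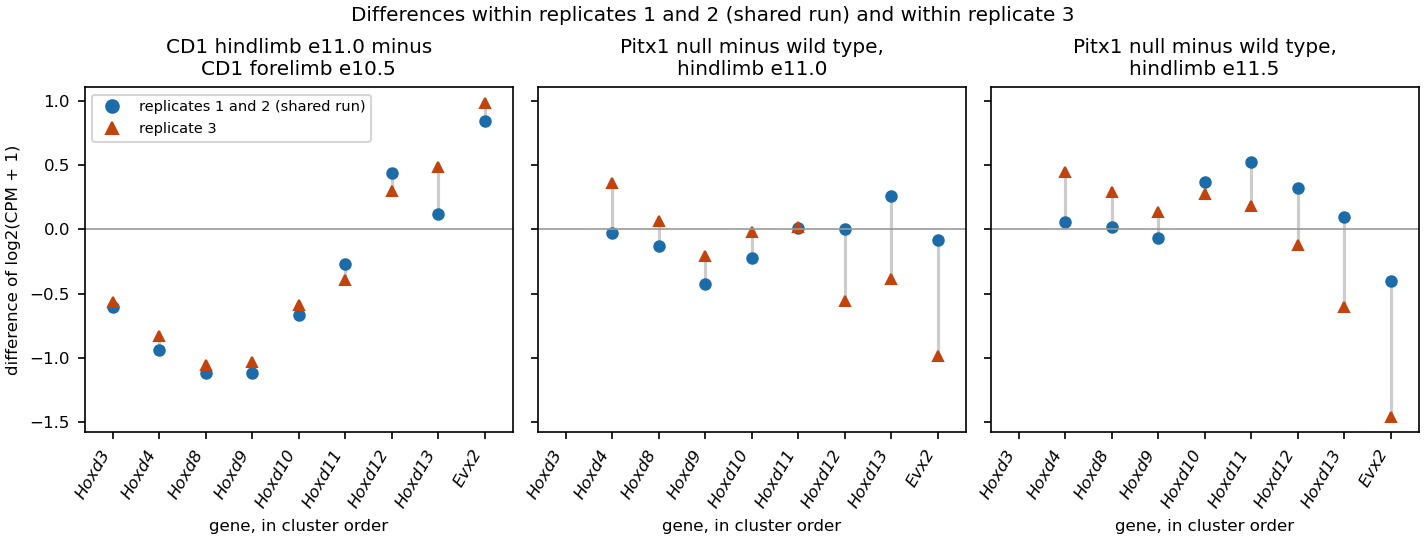
Difference of log2(CPM + 1) within replicates 1 and 2 (the shared run, circles) and within the replicate 3 pair (triangles) for each listed gene in cluster order, in 3 comparisons. In CD1 both sets of values have the same sign for each gene, while for Hoxd13 they are 0.26 and -0.39 in the e11.0 table, then 0.10 and -0.60 in the e11.5 table.

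Of 11 listed paralogues at e11.5 2 were higher in null hindlimbs, Hoxb8 (0.51 ± 0.11) and Hoxa11 (0.46 ± 0.06), and 0 were lower, with a median of 0.187. Hoxa11 and Hoxd11 belong to the same paralogue group. Hoxa13 did not pass (-0.55 ± 0.17, adjusted p = 0.0692). Of 20 flanking genes 1, Chrna1, was higher (0.71) and 0 were lower, with a median of 0.004. Of 24 limb bud genes that act on or with HoxD 3 were higher and 3 lower, with a median of -0.018, and 6 were higher and 3 lower with the replicate block or with trimmed-mean or median-ratio scaling, and 5 and 3 with upper-quartile scaling. Fgf10, the mesenchymal growth factor of limb outgrowth (0.65), and Sall3 (0.42) were higher. Runx2 (-1.10) and Sox9, the factor of cartilage precursors (-0.96), were lower. Of 5 muscle precursor markers 5 were lower (summed level 101 to 115 CPM in wild type and 70.8 to 76.9 CPM in null), and of 5 endothelial markers 2 were lower (330 to 356 and 284 to 315 CPM). Of 7 listed limb mesenchyme markers 3 were higher and 2 lower (summed level 1750 to 1930 CPM in wild type and 1320 to 1660 CPM in null). The 7 include Pitx1, at 319.3 to 364.5 CPM in wild type and 72.05 to 88.58 CPM in null, so the genotype itself lowers the null sums. Whether the sums differ without Pitx1 was not tested. One of 6 apical ridge markers was higher (89.6 to 104 and 112 to 127 CPM), and 1 of 5 listed somite and trunk mesoderm markers was lower (60.7 to 75.1 and 50.4 to 65.4 CPM). The part of these markers in the HoxD values was not tested.

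Levels were compared between genes per kb of annotated exon. In CD1 forelimb the order was led by Hoxd10 (38.3 CPM per kb), Hoxd9 (27.8) and Hoxd8 (20.3), with ranges apart. Hoxd13 (16.5), Hoxd12 (13.5) and Hoxd11 (11.9) followed, and from Hoxd8 to Hoxd11 each overlapped the next. Hoxd4 (4.67), Hoxd3 (0.285) and Evx2 (0.226) were the lowest. In CD1 hindlimb Hoxd10 (24.4 CPM per kb) overlapped Hoxd13 (20.2), which overlapped Hoxd12 (17.7), and all of these lay above Hoxd9 (12.8), Hoxd11 (9.53) and Hoxd8 (9.25). In wild type hindlimb at e11.0 Hoxd13 (15.9) and Hoxd10 (14.6) led and overlapped, and in null hindlimb they were at 17 and 12.8, also overlapping.

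At e11.5 the order was led from the 5′ end. In wild type Hoxd13 was at 102 CPM per kb, Hoxd12 at 42.6, Hoxd10 at 26.0 and Hoxd11 at 19.6, each apart from the next, with Hoxd9 (17.5) overlapping Hoxd11. In null hindlimb Hoxd13 was at 99.0, Hoxd12 at 48.8, Hoxd10 at 32.9 and Hoxd11 at 26.0, with overlap between Hoxd13 and Hoxd12 only. Per kb of coding sequence the order changed in part: Hoxd12 (55.9) led in CD1 hindlimb, above Hoxd10 (43.4), and Hoxd11 passed Hoxd10 at e11.5. At e11.0 Hoxd10 (26.0 in wild type and 22.8 in null) fell behind Hoxd12 (31.4 and 27.7) and Hoxd11 (27.6 and 27.7). In CD1 forelimb Hoxd10 still led, but Hoxd8 (64.1) passed Hoxd9 (58.3), and Hoxd11 (49.9) passed Hoxd12 (42.5) and Hoxd13 (40.3). The places of several genes, with Hoxd10 in hindlimb among them, thus depended on the length used. Hoxd13 led at e11.0 and e11.5 in the BALB/c groups by both lengths.

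**Figure D4:**
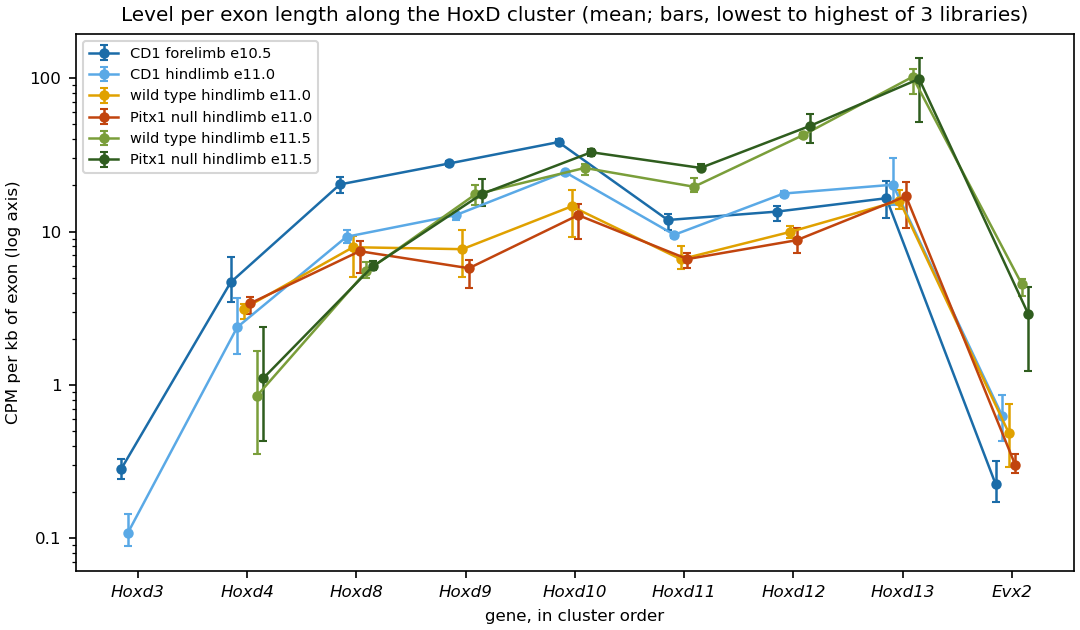
CPM per kb of exon (log axis) of each listed gene in cluster order, as the mean of 3 libraries with bars from the lowest to the highest library, for the 6 groups. The forelimb line peaks at Hoxd10 (38.3 CPM per kb), while both e11.5 lines peak at Hoxd13 (102 and 99.0), and each table was normalized on its own.

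Across the groups, levels set side by side come from tables normalized separately. The CD1 and BALB/c hindlimbs at e11.0 share stage and library type and differ in strain. The BALB/c groups share strain, but between e11.0 and e11.5 stage and library type cannot be told apart. Between the CD1 and e11.5 groups strain differs as well, so stage, strain and library type cannot be told apart there. Hoxd13 was at 254 ± 51.2 CPM (SD, n = 3) in wild type buds at e11.5 and 246 ± 106 CPM in null buds, and between 39.5 and 50.1 CPM on average in the other 4 groups, whose ranges overlapped. Evx2 had the same order of groups at its top, with 19.0 ± 2.73 and 12.1 ± 6.56 CPM at e11.5 and 0.946 to 2.64 CPM elsewhere. Hoxd8 was highest in forelimb (55.6 CPM), apart from the next group. Its mean was lowest in wild type hindlimb at e11.5 (15.1 CPM), but each hindlimb group overlapped the next in order. Hoxd9 was highest in forelimb (59.3 CPM) and lowest at e11.0 in null hindlimb (12.3 CPM), overlapping wild type (16.4 CPM). The ratio of Hoxd13 to Hoxd9 per kb, chosen after their values were seen, was 0.587, 0.424 and 0.777 in the forelimb libraries and 1.29, 1.12 and 2.28 in CD1 hindlimb. It was 1.48 to 2.76 in wild type and 2.45 to 3.18 in null hindlimbs at e11.0, and 3.91 to 7.63 and 2.34 to 9.26 at e11.5. A value under 1 occurred in the 3 forelimb libraries and in none of the 15 hindlimb libraries.

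The genes most like Hoxd9 and Hoxd13 were sought by Pearson's r over the 18 libraries, on log2(CPM + 1) centred within each table and run, among 12596 genes. The libraries share their groups, so r is a description. Centring takes out the differences between tables, so r describes changes within each table and not across the 6 groups. It also makes the replicate 3 pair of each table mirror each other, so fewer than 18 values are independent. For Hoxd9 they were Plk2 (0.951), Hoxc5 (0.942), Hoxa7 (0.942), Hoxd8 (0.937) and Cyth3 (0.936). Of the other listed genes of the cluster Hoxd10 ranked 27 (r = 0.861) and Hoxd4 39 (0.834), while r with Hoxd12 was -0.54. For Hoxd13 the list was Filip1l (0.83), Golph3 (0.808), Morf4l1 (0.8), Pclo (0.8) and Zfp422 (0.795). Evx2 ranked 19 (0.738) and Hoxd12 168 (0.6), and r between Hoxd13 and Hoxd9 was -0.517.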

How the data were processed

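RNA from limb buds was measured in 18 libraries of 6 groups, with timed breedings and silica spin columns per the labels' protocols. Reads were aligned with STAR, counted with featureCounts and analysed with edgeR on GRCm38 (mm10), per the submitters' processing notes. Versions, and whether counting used strand, are not given in the sources used here. Each of 3 deposited tables holds CPM per library as the authors scaled it, and beside it the authors' deposited log2 fold change, average log2 CPM, likelihood-ratio score, p-value and adjusted p-value, per the file headers.

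Each table was fitted alone over all its genes in R 4.3.3 with limma-trend (limma 3.58.1), whose model of log2(CPM + 1) had terms for group and run and 3 residual degrees of freedom. In CD1 the run of replicate 3 is not named, so its libraries were coded as outside the shared run. That coding is an assumption, and the column headers of these libraries carry the word consort. P-values were two-sided and adjusted by Benjamini-Hochberg within the table, with a threshold of 0.05. Fold changes on this scale understate those of low genes. The design planned for CPM was used. In each library 100% of CPM values came out as whole reads (tolerance 0.01 read), so edgeR 4.0.16 (quasi-likelihood) and DESeq2 1.42.0 were run on these reads as alternatives, calling 8 and 8, 0 and 0, and 2 and 2 of the listed HoxD genes and Evx2. The shares of all genes called by these alternatives are not given here, so the counts have no background beside them. Depth on listed genes was 24503895 to 45046659 reads for CD1, 17381522 to 44153230 for e11.0 and 30241262 to 53611914 for e11.5, which limits counting error only. The script was tested on simulated data. Same-numbered libraries deviated together across genes (replicates 1, 2 and 3 had r = 0.686, 0.798 and 0.939 for CD1, 0.662, 0.637 and 0.855 for e11.0, then 0.733, 0.83 and 0.914), so the replicate number was also fitted as a block, although these values include the shared run.

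Identifiers matched GENCODE M21 for 13513, 13998 and 13457 genes, and Hoxd4 was taken by identifier. All 10 genes of the cluster were named, with at most 4 passing genes per other list and comparison, by largest change, and 5 genes most like Hoxd9 and Hoxd13; others named were chosen after their values were seen. The members and lists were chosen with earlier results of these data known. Markers of neighbouring tissues are given as counts and summed levels. Promoters came from RefSeq. Protein sequences were not used here.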

Additional observations from a re-analysis of the deposited data

How the results depend on the processing

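Every sign of the CD1 differences was kept in all 161 alternative values, and 15 of 143 at e11.0 and 8 of 144 at e11.5 had the other sign, none of them called. Without the run term the listed HoxD genes and Evx2 past the threshold fell from 7 to 1 in CD1, that of Hoxd9, and from 3 to 0 at e11.5. Differences between replicate 3 and the other replicates then count as spread, and in CD1 the run term rested on the assumed coding. With the replicate block the listed HoxD genes and Evx2 past the threshold rose from 0 to 1 at e11.0 (Hoxd9). The block ended no call other than that of Evx2 at e11.5. Without Hoxd3 and Evx2, an alternative chosen after seeing the data, the CD1 count was 5. Leaving out 1 library at a time gave 5 to 9 in CD1, 0 to 1 at e11.0 and 0 to 3 at e11.5, with 0 without null replicate 2. The authors' deposited table called 9, 0 and 3 of them. Over all genes, the counts of 795, 1843 and 1455 became 13, 5 and 11 without the run term, 471, 199 and 483 with replicates 1 and 2 alone, 3442 at e11.0 with the replicate block, and 1689, 2895 and 2644 in the authors' deposited table. With 1 library left out they were as low as 394, 116 and 433 (without CD1 hindlimb replicate 1, wild type replicate 1 and null replicate 2) and as high as 5273 at e11.0 (without wild type replicate 2) and 2627 at e11.5 (without null replicate 1). Scaling turned the balance at e11.0 from 664 higher and 1179 lower to 1067 and 520 (trimmed mean), 1326 and 403 (median ratio) and 984 and 567 (upper quartile). At e11.5 lower calls stayed in excess, with 382 and 1073 becoming 651 and 927, 743 and 919, and 417 and 1082. The cause of the other shifts was not tested. Hoxd3 rested on 10 to 62 reads a library and Evx2 on 19 to 136 in the CD1 and e11.0 tables.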
